A study of Rattus norvegicus with 12 samples.

Results

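To follow the integrated stress response and the unfolded protein response after in vitro ischemia, the transcripts of 10 genes were examined in rat hippocampal neurons: Atf4, Atf5, Ddit3, Xbp1, Ppp1r15a, Trib3, Sesn2, Asns, Chac1 and Herpud1. They were chosen by name as the core transcription factors and targets of both pathways, out of 15154 genes that could be named on the array, and each of them was measured by 1 probe of the 30367 probes that are not controls. The experiment comprised 12 one-color Agilent arrays, 3 in each of 4 groups. The replicates came from 3 independent cultures, and whether the 4 conditions of a number share a culture is not stated in the sources used here. Cultures of Wistar E18 hippocampi, kept for 14 to 15 days, were placed for 2 h in an anaerobic chamber in a buffer without glucose (oxygen-glucose deprivation, OGD) or in an air/CO2 incubator in a similar buffer with glucose (Ctrl). They were then returned to their conditioned medium and collected after 7 h or 24 h of recovery. All groups therefore went through a change of buffer, and no culture was taken straight from its medium. The strain, stage, medium and culture time were the same in the 4 groups, and no genotype or drug set them apart. The cultures are described as neuronal, but by the study's account they contain a minority of glial cells.

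The integrated stress response is started by kinases that phosphorylate the translation factor eIF2, which lowers protein synthesis as a whole while the message of Atf4 is translated more efficiently. The ATF4 protein then switches on genes of amino acid supply and cell fate, among them Ddit3, which encodes CHOP, and Ppp1r15a, which encodes GADD34, a subunit that leads a phosphatase back to eIF2 and so ends the response. The unfolded protein response is set off by misfolded proteins in the endoplasmic reticulum (ER); 1 of its kinases, PERK, feeds into the same eIF2 pathway, IRE1 splices the message of Xbp1, and ATF6 is cut to release a transcription factor. In the ischemic brain these pathways are known for the arrest of protein synthesis after blood flow returns. The arrays measure amounts of transcript, and neither phosphorylation, nor translation, nor the splicing of Xbp1 was analysed here.

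The promoters of 5 of the 10 genes hold at least 1 of the sequence elements searched for, and those stretches are shown. Factors of these pathways are known to bind such elements. The cAMP response element, the only match in Ppp1r15a, is not particular to these pathways. They were taken from RefSeq windows of 250 bases before to 50 bases after the transcription start on build GRCr8, matched for 10 of 10 genes, and searched on both strands. The Herpud1 window belongs to a transcription start that lies inside the gene span given further below, not at its outer end. Capitals mark the match to the element, with up to 20 bases on each side, read 5′ to 3′ on the strand of the gene.
Trib3, C/EBP-ATF element, chr3:161275534-161275574, minus strand: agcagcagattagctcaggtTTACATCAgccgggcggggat
Chac1, C/EBP-ATF element, chr3:126795944-126795991, plus strand: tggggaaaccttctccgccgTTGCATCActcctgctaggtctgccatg
Herpud1, C/EBP-ATF element, chr19:10614864-10614911, minus strand: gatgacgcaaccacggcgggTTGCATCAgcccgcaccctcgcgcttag
Herpud1, ER stress response element II, chr19:10614801-10614851, minus strand: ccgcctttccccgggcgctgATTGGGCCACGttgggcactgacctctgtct
Xbp1, ER stress response element, chr14:84604538-84604596, plus strand: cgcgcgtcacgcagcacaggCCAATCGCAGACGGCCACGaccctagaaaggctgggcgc
Ppp1r15a, cAMP response element, chr1:105139635-105139682, minus strand: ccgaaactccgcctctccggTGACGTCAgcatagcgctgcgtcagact

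The C/EBP-ATF element core, TGATGNAA, which is bound by ATF4 with a C/EBP partner, was found in 3 of the 10 windows and in 3.98% of all 33469 windows searched. In all 3 genes it lies in the opposite orientation, and its last base lies at position -14 from the start in Trib3, -160 in Chac1 and -177 in Herpud1. The ER stress response element, bound by ATF6 with NF-Y, was found in Xbp1 alone among the 10 and in 0.0657% of all windows. The ER stress response element II was found in Herpud1 alone among them and in 0.0508% of all windows, and its 2 elements do not overlap. TGACGTCA, the cAMP response element, was present in Ppp1r15a and in 1.83% of all windows, and TGACGTGG, the core of the unfolded protein response element, in 0 of the 10 and in 0.595% of all windows. The windows of Atf4, Atf5, Ddit3, Asns and Sesn2 held no match to these letters, which says nothing of elements elsewhere. A match is a description of the sequence, and binding was not measured.

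The signal of an array is given as log2 of the intensity minus the median of that array, so that 0 is the middle probe, and levels of different probes cannot be compared with each other. All 10 probes were well above background on 12 of 12 arrays, and saturation was reached only by the Atf4 probe, on 1 array (Ctrl 7 h replicate 1). Before this scaling, median intensities of the Ctrl arrays ran from 402 to 660. Those of the OGD arrays ran from 131 to 546, and the lowest of each time belonged to replicate 1 (234 at 7 h and 131 at 24 h). Those 2 arrays stand apart from the rest, and where leaving one out ends a call or moves a difference of a member by over 1.5 times, the value without it is also given. The arrays lay on 6 slides, each with a Ctrl and an OGD array that share their time and number, so that every comparison can also be read within a slide, although on 3 slides the scans of the pair lay 177 to 211 min apart. Of the neuron markers, 15 of 15, such as Map2, Rbfox3 and Syn1, were well above background on all 12 arrays. Of the markers of other cells, 9 of 9 for astrocytes with a probe and 8 of 10 for microglia on the Ctrl arrays were also detected. With cultures collected whole, fewer cells of a type and less RNA per cell cannot be told apart.

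None of the 10 genes passed the threshold of the study's methods, an unadjusted p under 0.05 together with a change of at least 2-fold, at either time. With the log2 values that the authors normalized, 1 of them, Ppp1r15a, did at 7 h (1.01, unadjusted limma p of 0.0399). At 7 h 0 of 10 passed, against 3.74% of all probes (2.08% upward and 1.66% downward). At 24 h 0 of 10 passed, against 5.67% of all probes (3.71% upward and 1.96% downward). On p alone, 2 of 10 passed at 7 h, where 11.8% of all probes did, and 0 of 10 at 24 h, where 13.7% did. The 2 were Ppp1r15a, which was higher after OGD, and Sesn2, which was lower. No probe of the array, members included, had an adjusted limma p under 0.05 (Benjamini-Hochberg, over all probes), although 3590 probes at 7 h and 4160 at 24 h had an unadjusted one. Members differed in direction at 7 h, with 6 positive and 4 negative log2 fold changes and a median of 0.07, beside a median of -0.06 over all probes. At 24 h 8 of 10 were negative, with a median of -0.17 beside 0.01 over all probes. These changes are relative to the middle of each array. Scaled instead to the 1 usable spike-in probe, the median of all probes was -0.86 at 7 h and -1.01 at 24 h, and the members shifted with it, to 0.18 for Ppp1r15a and -1.75 for Sesn2 at 7 h. With another background correction (normexp), 3 of 10 passed at 7 h, all lower after OGD, where 2.87% of all probes passed downward. They were Asns, Xbp1 and Sesn2, with log2 changes of -1.13, -1.04 and -1.14. Every member had a lower log2 change under normexp than in the values reported, with Ppp1r15a at 0.41 and Ddit3 at -0.24. Over all probes the normexp median at 7 h was 0.08, and 2047 of the 2918 probes past both thresholds were higher. The cause of the members' shared shift was not tested.

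**Figure D1:**
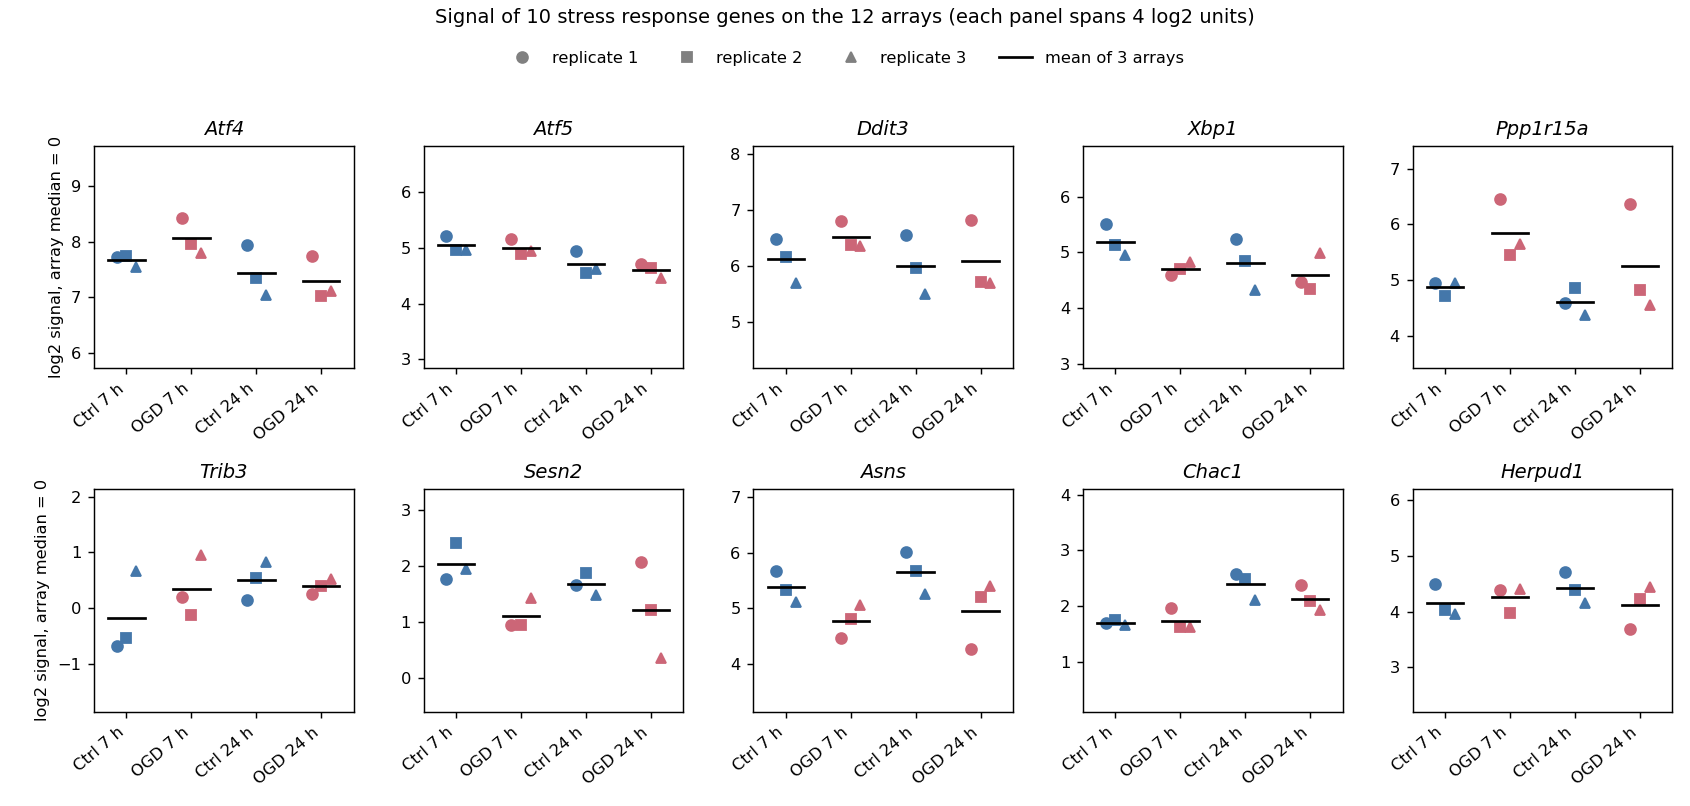
Log2 signal minus the array median of the 10 genes in the 4 groups, 1 point per array (shape gives the replicate number, blue Ctrl, red OGD) with a line at the mean of 3 arrays; every panel spans 4 log2 units. The OGD arrays of Ppp1r15a at 7 h lie above and those of Sesn2 below all Ctrl arrays of that time, while at 24 h the groups of every gene overlap.

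Ppp1r15a (chr1:105136521-105139596), the gene of the eIF2 phosphatase subunit GADD34, had the largest difference among the members. Its signal at 7 h was 4.94, 4.71 and 4.95 in the Ctrl arrays of replicates 1, 2 and 3, and 6.46, 5.45 and 5.65 in the OGD arrays. All 3 OGD arrays lay above all 3 Ctrl arrays, and OGD replicate 1 was the highest. The difference was 0.99 on the log2 scale (SE 0.43, unadjusted limma p of 0.0435, adjusted p = 0.411), a fold of 1.98 with a 95% interval from 1.02 to 3.83. It was positive on each slide, at 1.51, 0.75 and 0.70. Without OGD 7 h replicate 1 it was 0.69 (unadjusted limma p of 0.166), and p was no longer under 0.05 in 8 of the 12 fits that each left out 1 array. With OGD 7 h replicate 2 left out it reached 1.19 (unadjusted limma p of 0.0359) and passed both thresholds. With both OGD replicate 1 arrays left out, the difference at 7 h was 0.69 and its unadjusted limma p 0.00658. Its unadjusted limma p was 0.0553 after centring on the 75th percentile and 0.0529 after quantile normalization, and normexp gave 0.41 (unadjusted limma p of 0.317).

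At 24 h the signal of Ppp1r15a was 4.58, 4.85 and 4.37 in the Ctrl arrays and 6.37, 4.82 and 4.55 in the OGD arrays. A single array, OGD replicate 1, was high, and the other OGD arrays lay within the Ctrl range. The difference was 0.65 (SE 0.43, adjusted p = 0.511), with 1.79, -0.03 and 0.18 on the 3 slides, and without OGD 24 h replicate 1 it was 0.08 (unadjusted limma p of 0.782). The difference between the times, -0.34, had an adjusted p of 1.

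Sesn2 (chr5:149986304-150005255), which encodes sestrin 2, a stress-induced inhibitor of the growth kinase mTORC1, went the other way. At 7 h its signal was 1.76, 2.42 and 1.94 in the Ctrl arrays and 0.95, 0.94 and 1.42 in the OGD arrays. Every OGD array lay below every Ctrl array. The log2 difference was -0.94 (SE 0.38, unadjusted limma p of 0.0305, adjusted p = 0.373), a fold of 0.522 with a 95% interval from 0.293 to 0.929, and within the slides it was -0.81, -1.48 and -0.52. Left out singly, Ctrl 7 h replicate 2, OGD 7 h replicate 1 and OGD 7 h replicate 2 each took the unadjusted limma p above 0.05 (to 0.108, 0.079 and 0.0817). Without Ctrl 7 h replicate 1 the difference was -1.08 and without OGD 7 h replicate 3 it was -1.10, and in both fits Sesn2 passed the p and the fold threshold. Scaling by the 75th percentile or by quantiles gave -0.83 and -0.87 with an unadjusted limma p of 0.0953 and 0.0659.

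Sesn2 signals at 24 h spread more widely after OGD, at 2.08, 1.21 and 0.35, than in the Ctrl arrays, at 1.67, 1.88 and 1.49. The highest and the lowest of these 6 arrays were both OGD arrays. The log2 difference was -0.47 (SE 0.38, adjusted p = 0.578), with slide values of 0.41, -0.67 and -1.14. Without OGD 24 h replicate 1 it became -0.90 (unadjusted limma p of 0.0135), and without OGD 24 h replicate 3 it was -0.04 (unadjusted limma p of 0.911), so that its size turned on single arrays.

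Atf4 (chr7:113684681-113686739) encodes the central transcription factor of the integrated stress response. Its signal at 7 h was 7.73, 7.75 and 7.55 in the Ctrl arrays and 8.42, 7.96 and 7.80 in the OGD arrays. As recorded, the groups did not overlap, but the lowest OGD array lay only just above the highest Ctrl array. The probe was saturated on Ctrl replicate 1, whose value is thus a lower bound, so that an overlap is possible. The group difference at 7 h and the difference on the slide of replicate 1 are therefore upper bounds. The log2 difference was 0.39 (SE 0.28, adjusted p = 0.602) with a fold between 0.85 and 2.01 at 95% confidence, and it was 0.69, 0.22 and 0.25 within the slides. Without OGD 7 h replicate 1 the group difference was 0.21, and without the saturated Ctrl 7 h replicate 1 it was 0.41 (unadjusted limma p of 0.24). In place of median centring, quantile normalization gave -0.04 at 7 h, and normexp gave -0.20. After 24 h the signal was 7.94, 7.34 and 7.04 in the Ctrl arrays and 7.74, 7.03 and 7.12 in the OGD arrays. The groups overlapped, with a difference of -0.14 (SE 0.28, adjusted p = 0.857). Left out, Ctrl 24 h replicate 1 turned it to 0.11 and OGD 24 h replicate 1 took it to -0.36.

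Ddit3 (chr7:65001695-65006517) encodes CHOP, a transcription factor known for its part in cell death under ER stress. At 7 h it read 6.49, 6.16 and 5.70 in the Ctrl arrays and 6.81, 6.37 and 6.36 in the OGD arrays. The OGD array was the higher on each slide, by 0.32, 0.21 and 0.65, but the groups overlapped. The log2 difference was 0.39 (SE 0.37, adjusted p = 0.692), with a 95% interval for the fold from 0.749 to 2.3, and it was 0.25 without OGD 7 h replicate 1 and -0.24 under normexp. After 24 h the Ctrl arrays read 6.55, 5.97 and 5.49, and the OGD arrays 6.83, 5.71 and 5.70. Replicate 1 was the highest of both groups, and the difference was 0.08 (SE 0.37, adjusted p = 0.969). It was -0.30 without OGD 24 h replicate 1 and -0.17 without Ctrl 24 h replicate 3.

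Atf5 (chr1:104432094-104437611) encodes a factor that, like ATF4, is translated when eIF2 is phosphorylated. Its signal ran from 4.97 to 5.21 in the Ctrl and from 4.90 to 5.16 in the OGD arrays at 7 h, and from 4.55 to 4.95 and from 4.47 to 4.71 at 24 h. These ranges are narrow, and the groups overlapped at both times. The log2 differences were -0.05 (SE 0.18, adjusted p = 0.917) and -0.10 (SE 0.18, adjusted p = 0.837). With median centring, the 95% intervals of the fold, 0.738 to 1.26 and 0.714 to 1.22, exclude a 2-fold change either way. Without OGD 7 h replicate 1 the difference at 7 h was -0.13. The sign of so small a difference depended on the scaling, with 0.06 and 0.02 when arrays were centred on the 75th percentile. Its size did too, with -0.60 at 7 h and -0.51 at 24 h under normexp. Spike-in scaling gave -0.86 at 7 h and -1.12, beyond 2-fold, at 24 h.

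Xbp1 (chr14:84604623-84609707), whose spliced message encodes the transcription factor of the IRE1 branch, was the other factor whose groups did not overlap at 7 h. The signal was 5.51, 5.13 and 4.95 in the Ctrl arrays and 4.60, 4.70 and 4.83 in the OGD arrays. All OGD arrays lay below all Ctrl arrays, and the slides gave -0.91, -0.43 and -0.12. The difference of -0.49 (SE 0.27) had an adjusted p of 0.495. The Ctrl arrays of 24 h read 5.24, 4.85 and 4.33 and the OGD arrays 4.47, 4.35 and 4.99, which overlap. The difference was -0.20 (SE 0.27, adjusted p = 0.753) and 0.01 without Ctrl 24 h replicate 1.

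Asns (chr4:36752061-36769970), the gene of asparagine synthetase and a classic ATF4 target, was lower in most OGD arrays. At 7 h it read 5.67, 5.34 and 5.12 in the Ctrl arrays and 4.47, 4.81 and 5.06 in the OGD arrays. The groups did not overlap, but the gap was narrow and the slides gave -1.20, -0.53 and -0.05. The difference was -0.60 (SE 0.32, adjusted p = 0.491). The Ctrl arrays of 24 h read 6.02, 5.67 and 5.26 and the OGD arrays 4.27, 5.20 and 5.40. Replicate 3 was higher after OGD and the other replicates lower, with slide values of -1.75, -0.47 and 0.14. The difference was -0.69 (SE 0.32, unadjusted limma p of 0.0546, adjusted p = 0.373), and -0.35 (unadjusted limma p of 0.224) without OGD 24 h replicate 1, the array far below the others. Without Ctrl 24 h replicate 3 or OGD 24 h replicate 3 the unadjusted limma p was 0.0312 or 0.0226.

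Trib3 (chr3:161269939-161275533) encodes a pseudokinase induced by ATF4 and CHOP, and its promoter carries the C/EBP-ATF element printed above. Its signal was close to the array median, at -0.68, -0.53 and 0.66 in the Ctrl arrays and 0.20, -0.13 and 0.96 in the OGD arrays at 7 h. Replicate 3 was high in both groups, so that the groups overlapped while the OGD array was the higher on each slide, by 0.88, 0.40 and 0.29. The difference was 0.52 (SE 0.38, unadjusted limma p of 0.194, adjusted p = 0.598). With the slide as a block the SE was 0.21, the unadjusted limma p 0.0412 and the adjusted p 0.46. Without Ctrl 7 h replicate 3 the difference was 0.95 (unadjusted limma p of 0.0151). It was smaller without OGD 7 h replicate 3 (0.22, unadjusted limma p of 0.587) or Ctrl 7 h replicate 1 (0.28, unadjusted limma p of 0.514). Normexp gave 0.24 (unadjusted limma p of 0.457), and the methods' t-test gave an unadjusted p of 0.381. At 24 h the signal was between 0.14 and 0.83 in the Ctrl and between 0.26 and 0.52 in the OGD arrays, which lay inside the Ctrl range, and the difference was -0.12 (SE 0.38, adjusted p = 0.936). It was 0.05 without Ctrl 24 h replicate 3 and -0.05 without OGD 24 h replicate 1.

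Chac1 (chr3:126796131-126799352), which encodes an enzyme that breaks down glutathione and is a target of ATF4, had small differences. Its signal at 7 h was between 1.66 and 1.74 in the Ctrl arrays and between 1.62 and 1.96 in the OGD arrays, with a difference of 0.04 (SE 0.19, adjusted p = 0.943). The sign rested on OGD 7 h replicate 1, without which it was -0.07. By 24 h the Ctrl arrays read 2.58, 2.49 and 2.11 and the OGD arrays 2.37, 2.09 and 1.93. The slides gave -0.21, -0.40 and -0.17, and Chac1 was the 1 gene of the 10 with the same sign on all 3 slides at 24 h. The difference of -0.26 (SE 0.19, adjusted p = 0.55) has a 95% interval for the fold from 0.62 to 1.12.

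Herpud1 (chr19:10604360-10624168) encodes an ER membrane protein of ER-associated degradation and is known as a target of the unfolded protein response. At 7 h it read 4.49, 4.03 and 3.95 in the Ctrl arrays and 4.39, 3.98 and 4.40 in the OGD arrays. These values are interleaved, and the difference was 0.10 (SE 0.25, adjusted p = 0.881) with a fold between 0.727 and 1.58. Without OGD 7 h replicate 1 it was 0.04. By 24 h the Ctrl arrays read 4.71, 4.38 and 4.16 and the OGD arrays 3.69, 4.23 and 4.44. OGD replicate 1 was the lowest of the 6 arrays, the slides gave -1.02, -0.16 and 0.28, and the difference was -0.30 (SE 0.25, adjusted p = 0.598) with that array and -0.08 without it.

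**Figure D2:**
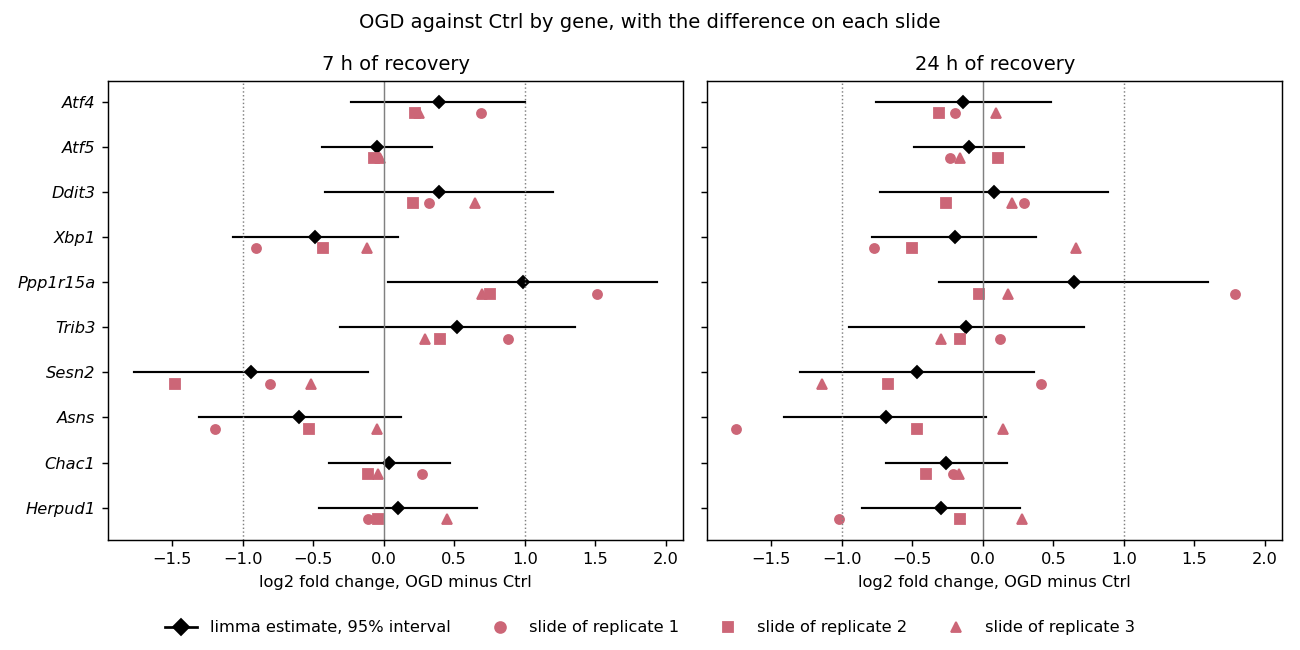
Log2 fold change of OGD against Ctrl for each gene at 7 h (left) and 24 h (right): black diamonds give the limma estimate with its 95% interval, red symbols the difference on each of the 3 slides, and dotted lines a 2-fold change. At 7 h the interval leaves out 0 for Ppp1r15a and Sesn2, and at 24 h every interval includes 0.

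Counted over the 10 genes, the OGD and Ctrl arrays did not overlap in 5 at 7 h (Atf4 and Ppp1r15a higher, Asns, Xbp1 and Sesn2 lower) against 26.1% of all probes, and in 0 at 24 h against 17.9% of all probes. Atf4 is counted at the recorded value of its saturated array. On all 3 slides the OGD array was higher in 4 genes and lower in 4 at 7 h, and higher in 0 and lower in 1 at 24 h. Of all probes 23.7% were higher and 23.6% lower on all slides at 7 h, and 20.9% and 12.1% at 24 h. No gene was shown to respond differently at the 2 times. The interaction of OGD and time had an unadjusted limma p under 0.05 in 0 of 10 genes, against 3.58% of all probes, with Atf4 the lowest (difference between the times -0.53, SE 0.40, adjusted p = 1). With median centring, the 95% interval of the fold excluded a 2-fold change either way in 3 of 10 genes at 7 h. At 24 h it did so in 7 of 10. For the rest a change of that size was not excluded, and intervals under other scalings were not counted. Neuron markers moved with the groups at 24 h, when 15 of 15 had a negative log2 change, 6 of them past both thresholds, with a median of -0.77. At 7 h 12 of 15 were negative, 2 of them past both, with a median of -0.34. The mean of the list ran from 3.98 to 4.52 in the Ctrl and from 2.76 to 3.79 in the OGD arrays at 24 h. Astrocyte markers had a median change of 0.13 at 7 h and -0.12 at 24 h, with 0 of 9 past both thresholds at either time. Of 10 microglia markers 1 was past both upward at 7 h (Cx3cr1, 1.02) and 0 at 24 h, and the mean of the list ran from -1.18 to -0.84 in the Ctrl and from -1.40 to -0.33 in the OGD arrays. Of 11 oligodendrocyte lineage markers 1 was past both downward at 7 h and 0 at 24 h, with list means from 2.43 to 3.30 in the Ctrl and from 1.85 to 3.53 in the OGD arrays. Of 10 markers of vascular cells and fibroblasts 1 was past both downward at 7 h and 1 upward at 24 h (Pdgfrb, 1.34), with list means from -0.23 to 0.40 and from -0.53 to 0.46. The part of these shifts in the members' values was not tested.

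To set the members in their pathways, 141 further genes were listed in 7 groups, of which 127 had a named probe. Of these, 2 passed both thresholds upward and 0 downward at 7 h, and 1 upward and 2 downward at 24 h. Of all named genes, read by 1 probe each in the same way, 1.56% passed upward and 2.07% downward at 7 h, and 2.74% and 2.38% at 24 h. Upward calls of the listed genes at 7 h are thus near the background, and the counts are too small to set the lists apart. Under normexp 0 passed upward and 6 downward at 7 h and 0 upward and 4 downward at 24 h, so that the direction of these calls turned with the background correction. Over all probes under normexp 2.87% passed downward at 7 h. There, 2047 of the 2918 probes past both thresholds at 7 h were higher, and 190 of the 743 at 24 h. In the values reported, the median log2 change of the listed genes was -0.07 at 7 h and -0.03 at 24 h. Without OGD 7 h replicate 1 the count at 7 h was 1. At 24 h it was 0 without Ctrl 24 h replicate 1 or without OGD 24 h replicate 1, 5 without OGD 24 h replicate 2 and 7 without OGD 24 h replicate 3.

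Among 20 genes of amino acid synthesis and transport with a probe, Slc1a5, which encodes the neutral amino acid transporter ASCT2, was higher after OGD at both times. Its signal at 7 h was 0.85, 0.87 and 1.58 in the Ctrl arrays and 2.29, 2.34 and 2.73 in the OGD arrays, without overlap (log2 difference 1.35, SE 0.33, unadjusted limma p of 0.00194, adjusted p = 0.248). At 24 h the difference was 1.02 (unadjusted limma p of 0.0106, adjusted p = 0.29), and 0.77 (unadjusted limma p of 0.0503) without Ctrl 24 h replicate 1 and 0.74 (unadjusted limma p of 0.0434), under 2-fold, without OGD 24 h replicate 1. Under normexp it was 0.82 at 7 h and 0.59 at 24 h, below 2-fold at both. Cbs, which encodes cystathionine beta-synthase, and Slc7a3, which encodes a cationic amino acid transporter, were lower at 24 h, with log2 changes of -1.54 (SE 0.56, unadjusted limma p of 0.0198, adjusted p = 0.31) and -1.24 (SE 0.42, unadjusted limma p of 0.013, adjusted p = 0.29). In both, the lowest array was OGD replicate 1 (1.15 for Cbs and 2.72 for Slc7a3), and without it the changes were -0.73 and -0.86. Slc1a4, a close relative of Slc1a5, had changes of -0.84 and -0.76 at 7 h and 24 h, opposite in sign to it and under 2-fold (unadjusted limma p of 0.00341 and 0.00636).

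Members of the 17 cytosolic aminoacyl-tRNA synthetases, which load amino acids onto tRNA, had a negative log2 change in 13 cases at 7 h and 13 at 24 h. In the values reported none changed by 2-fold, and 4 at 7 h and 2 at 24 h had an unadjusted limma p under 0.05, all lower after OGD. Among all named genes 59.9% were negative at 7 h and 53.5% at 24 h, and 8.06% and 6.9% had such a p with a lower signal. Examples are Hars1 at 7 h (-0.56, adjusted p = 0.322) and Cars1 at 24 h (-0.60, adjusted p = 0.321), and without OGD replicate 1 of their time these were -0.46 (unadjusted limma p of 0.0644) and -0.49 (unadjusted limma p of 0.0785). The 13 genes of eIF2 kinases, the exchange factor eIF2B and the phosphatase had 11 negative values at 7 h, 3 of them at an unadjusted limma p under 0.05, and 10 at 24 h, 0 of them at such a p. The subunit gene Eif2b4 read 3.41, 3.32 and 3.12 in the Ctrl and 2.24, 2.58 and 2.82 in the OGD arrays at 7 h, without overlap (-0.73, SE 0.22, adjusted p = 0.276).

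Of 18 further stress regulators downstream of ATF4 and CHOP, only Atf3 passed both thresholds in the values reported. Atf3, a transcription factor induced early in many kinds of stress, read 4.60, 4.08 and 4.14 in the Ctrl and 5.89, 5.25 and 5.02 in the OGD arrays at 7 h (log2 difference 1.11, SE 0.35, unadjusted limma p of 0.00951, adjusted p = 0.29). Its OGD arrays were all above its Ctrl arrays. The difference was 0.86, under 2-fold, without OGD 7 h replicate 1, and 0.56 (unadjusted limma p of 0.199) under normexp. Gdf15, a stress-induced cytokine, had a larger difference of 1.61 but also a larger SE of 0.76 (adjusted p = 0.439). In the values reported, none of the 18 passed at 24 h. Vegfa, the angiogenic growth factor, came closest on its brightest probe, which fell just short of a 2-fold lower signal (unadjusted limma p of 0.0444, adjusted p = 0.355), but its other 3 probes gave -0.25, -0.31 and -0.69 with an unadjusted limma p between 0.195 and 0.68.

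The ER branch showed no gene past both thresholds in any of its 3 lists. At 24 h Creld2 and Ern1 were more than 2-fold higher after OGD, but their unadjusted limma p was above 0.05. Creld2, of the chaperone list, had a difference of 1.02 (SE 0.50, unadjusted limma p of 0.0684, adjusted p = 0.396). Ern1, of the list of ER stress sensors, had a larger difference with an SE of 0.75 (unadjusted limma p of 0.14, adjusted p = 0.484). ER chaperones and folding enzymes had positive values in 14 of 22 genes at 7 h and 16 of 22 at 24 h, with medians of 0.16 and 0.18. Among all 15154 named genes, 6084 were positive at 7 h and 7045 at 24 h, with medians of -0.11 and -0.03. Hspa5, which encodes the ER chaperone BiP and is the classic readout of the unfolded protein response, had differences of 0.40 (adjusted p = 0.671) and 0.32 (adjusted p = 0.696). Calr, which encodes the calcium-binding chaperone calreticulin, had the lowest p of the list at 7 h, with a difference of 0.81 (SE 0.24, adjusted p = 0.274) and all 3 OGD arrays above the Ctrl arrays. Pdia5, a protein disulfide isomerase gene, had the lowest at 24 h (0.56, adjusted p = 0.307). Under normexp Calr at 7 h was 0.22 (unadjusted limma p of 0.528) and Pdia5 at 24 h was 0.36 (unadjusted limma p of 0.172). The 22 genes of ER-associated degradation and translocation had medians of -0.09 and -0.03, and at 24 h 0 of them had an unadjusted limma p under 0.05, Syvn1 being the lowest (-0.47, adjusted p = 0.431). At 7 h 1 did, the selenoprotein gene Selenok (0.45, adjusted p = 0.387), whose probe was saturated on Ctrl 7 h replicate 1, so that this value is an upper bound. Quantile normalization gave -0.05, and the difference was 0.31 (unadjusted limma p of 0.144) without OGD 7 h replicate 1. The list of ER stress sensors and their proteases, with 15 genes, also holds genes that are neither, such as NF-Y subunits and the cell death genes Bak1 and Bax. Its medians of -0.15 and 0.06 are thus not values of sensors and proteases alone. Bak1 at 7 h (0.54, adjusted p = 0.331) and Bax at 24 h (0.48, adjusted p = 0.303) had the lowest p of the list. Under normexp these differences were -0.03 and 0.07.

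**Figure D3:**
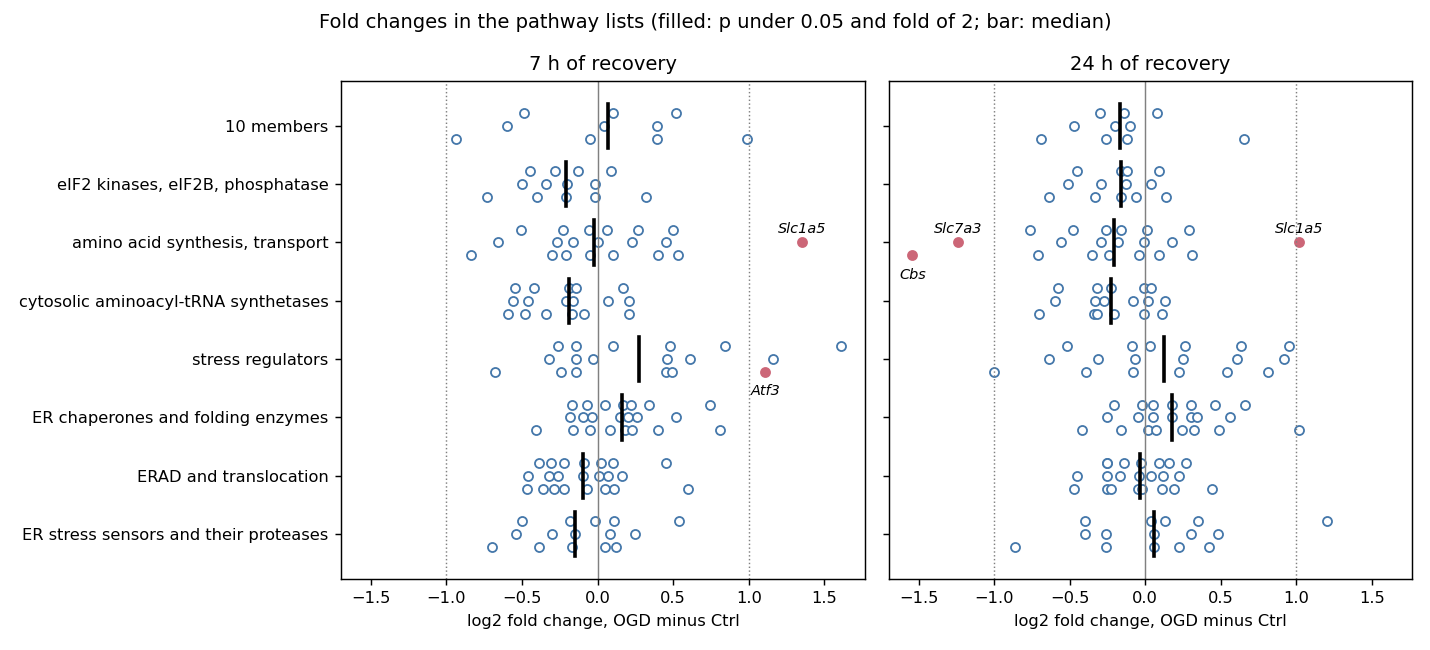
Log2 fold change of OGD against Ctrl for the 10 genes and the 7 pathway lists at 7 h (left) and 24 h (right), 1 circle per gene, with a black bar at the median of each row and dotted lines at 2-fold. The filled and named genes are those past p of 0.05 and 2-fold: Slc1a5 and Atf3 at 7 h, and Slc1a5, Cbs and Slc7a3 at 24 h.

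Over the 12 arrays the 10 genes did not follow 1 common pattern. Of the 45 pairs, 26 had a Pearson correlation above 0, the median was 0.09, and the range ran from -0.84 to 0.86. Ddit3 and Atf4 were the most alike, at 0.86 over all arrays and 0.92 after the group means were taken out, and Ppp1r15a went with both (0.75 with Ddit3 and 0.67 with Atf4). Asns and Ppp1r15a were the most opposed, at -0.84, and Asns went with Herpud1 (0.69) and Xbp1 (0.63). Chac1 depended most on the group means. With Atf4 its correlation was -0.16 over all arrays and 0.89 after the group means were taken out. The same step took it from 0.10 to 0.84 with Ddit3, from -0.08 to 0.78 with Ppp1r15a and from -0.46 to 0.62 with Atf5. With Trib3 and Asns it went the other way, from 0.20 to -0.39 and from 0.23 to -0.28. These correlations are a description of 12 arrays that share the centring, the slides and, for OGD replicate 1, a low intensity.

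**Figure D4:**
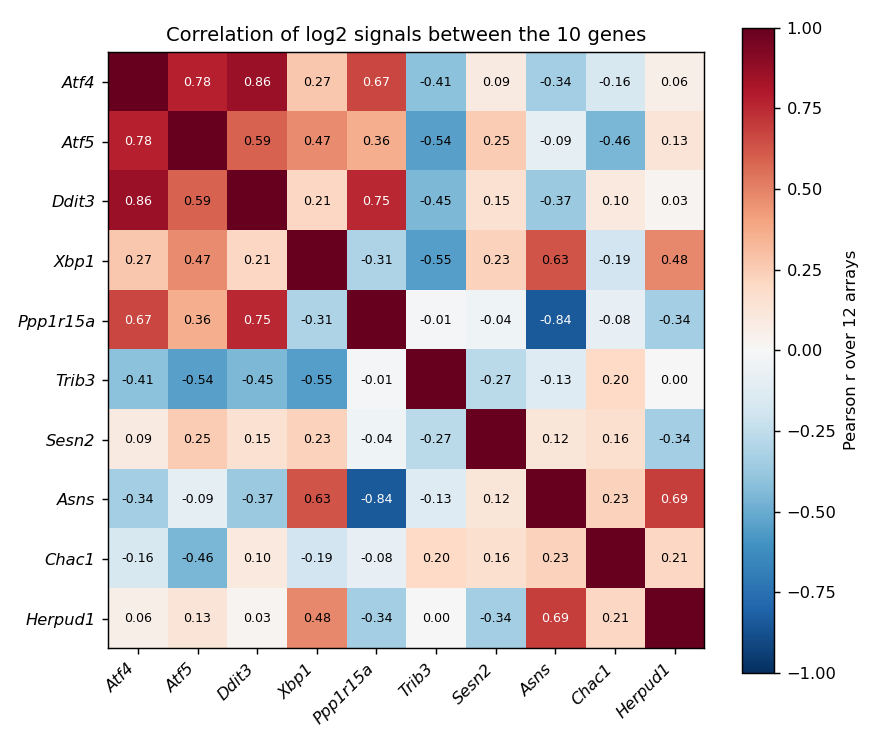
Pearson correlation of the log2 signal between each pair of the 10 genes over the 12 arrays, with the value in each cell and color from blue (-1) to red (1). Atf4, Ddit3 and Ppp1r15a correlate positively with one another (0.67 to 0.86), and Asns and Ppp1r15a have the lowest value, -0.84.

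Among 10918 other genes that were well above background on all arrays, those whose signal followed the mean standardized signal of the 10 genes most closely over the 12 arrays were Ero1a (r = 0.85), Dnaja1 (0.83), Crhbp (0.82), Nrsn1 (0.82) and Slc25a28 (0.80). Ero1a encodes an oxidase that drives disulfide bond formation in the ER, and it is also 1 of the 22 listed folding enzymes, while Dnaja1 encodes a cytosolic co-chaperone of HSP70. None of the 5 passed both thresholds at either time.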

How the data were processed

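RNA of 12 samples, with 3 independent cultures as the biological replicates of each group, was labeled with Cy3 and hybridized by the authors to one-color Agilent arrays. The deposited intensity of a spot is the processed signal of Feature Extraction, with the background subtracted and arrays not yet scaled to each other. Log2 values that the authors normalized, used as an alternative, are these intensities on the log2 scale shifted by a fixed amount on each array (within 0.01). Here, spots marked as outliers were left out, the spots of a probe averaged as log2, and each array centred on the median of its 30367 non-control probes, as in the study's methods. No probe was filtered out. Names came from RefSeq accessions (18004 probes, 15154 genes, assembly GRCr8), and the brightest probe stood for a gene. One limma model (version 3.58.1, R 4.3.3) of the 4 groups gave OGD against Ctrl, with two-sided p-values and Benjamini-Hochberg adjustment over all probes. The threshold, an unadjusted p under 0.05 and a fold of 2, is that of the methods. The number of arrays limits the precision. The procedure was run on simulated data with planted changes larger than those of the members and without slide effects or dim arrays. That run says nothing of changes of the members' size.

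Members and lists were chosen with earlier results of these data known. Named are all members, up to 3 genes past the threshold per pathway list and time (with none, the gene of lowest p), and the 5 genes most like the members. Slc1a4, Gdf15, Hspa5, Ern1, Creld2, Trib1, Cx3cr1 and Pdgfrb were added after their values were seen. Alternatives were other scalings (75th percentile, quantile, spike-in), normexp with an offset of 50 on the median spot signal, a filter on dim probes, the authors' values, the methods' t-test, limma on each time alone, the slide as a block, array quality weights, averaging a gene's probes, and leaving out each array. The fit without both OGD replicate 1 arrays was chosen after seeing the data.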

Additional observations from a re-analysis of the deposited data

Results flagged for a closer look

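Among the listed pathway genes, Trib1, a pseudokinase gene of the ATF4 and CHOP list, and Calr, the calreticulin gene of the ER chaperone list, had an unadjusted p under 0.05 for the interaction of OGD and time. The log2 change of Trib1 was 0.84 at 7 h and -0.07 at 24 h, a difference of -0.91 with an unadjusted limma p of 0.0298. That of Calr was 0.81 at 7 h and 0.05 at 24 h, a difference of -0.76 with an unadjusted limma p of 0.0456. Both had an adjusted p of 1 over all probes, and 2 of 127 pathway genes is 1.57%, beside 3.58% of all probes, so that neither response was shown to differ between the times. Of the 10 stress response genes, 0 had an interaction p under 0.05.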

How the results depend on the processing

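The pairing of arrays by replicate number was checked first: the OGD and Ctrl arrays of a number deviated from their group means by correlations of -0.05, 0.11 and -0.01 (7 h) and of 0.08, 0.17 and -0.01 (24 h). In the main model the numbers, which are also the slides, were thus not treated as pairs. Correlations over all probes cannot show whether single genes are paired, and the slide was therefore also fitted as a block. With the replicate block, slide fixed, 0 members passed both thresholds at either time and 3 in place of 2 were under an unadjusted p of 0.05 at 7 h, Trib3 being added (unadjusted limma p of 0.0412). The pathway genes past both thresholds numbered 3 in place of 2 at 7 h and 4 in place of 3 at 24 h. Selenok at 7 h and Cars1, Vegfa and Pdia5 at 24 h were no longer under an unadjusted p of 0.05, and no other named gene crossed it. The random block had a slide correlation of 0.0176, and it moved no named gene across that threshold.

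Of 260 member fold changes recomputed under other settings, 213 kept their direction and side of the unadjusted p threshold, 23 reversed, 7 lost and 17 gained it. In several of these settings no direction could reverse, as the members kept the same fold changes and only p could move. These were the filter on dim probes, the methods' t-test, limma on each time alone, both slide blocks and averaging a gene's probes. The count thus overstates how stable the directions are. Members past both thresholds at 7 h, 0 in the values reported, were 3 with normexp (Asns, Xbp1 and Sesn2, all lower), 1 with the authors' log2 values (Ppp1r15a) and 1 with array quality weights (Sesn2), and 0 or 1 when an array was left out. Members under an unadjusted p of 0.05, 2 at 7 h and 0 at 24 h, ranged from 0 to 4 at 7 h and from 0 to 3 at 24 h over all settings. Array quality weights also gave an interaction for 1 member (Ppp1r15a), and fits without 1 array for 0 or 1 (Trib3 without Ctrl 7 h replicate 3, Ppp1r15a without OGD 24 h replicate 1). With those weights 5119 probes at 7 h and 598 at 24 h passed an adjusted p of 0.05, against 0 and 0 without them. Over all probes, normexp gave 2918 and 743 past both thresholds in place of 1136 and 1721, with 2047 and 190 of them higher. Spike-in scaling gave 358 and 537, and the methods' t-test 808 and 634. Pathway genes past both thresholds at 7 h (2 higher and 0 lower in the values reported) numbered 0 with spike-in scaling, 6 with normexp (0 higher, 6 lower) and 4 with array weights (4 higher, 0 lower), and 1 to 3 when an array was left out. At 24 h, with 1 higher and 2 lower in the values reported, they numbered 0 higher and 4 lower with normexp, 0 higher and 2 lower with spike-in scaling, 0 with the methods' t-test, 1 with array weights, 0 without both OGD replicate 1 arrays (chosen after seeing the data), and 0 to 7 when 1 array was left out. The causes were not tested.

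Directions reversed as follows. Centring on the 75th percentile turned Atf5 to 0.06 at 7 h and 0.02 at 24 h. Quantile normalization turned Atf4 (-0.04), Atf5 (0.01) and Selenok (-0.05) at 7 h and Atf5 (0.01) at 24 h. Spike-in scaling, which moves the median of all probes to -0.86 and -1.01, turned Ddit3 (-0.41), Atf4 (-0.42), Trib3 (-0.28), Chac1 (-0.77), Herpud1 (-0.71), Selenok (-0.35) and Bak1 (-0.27) at 7 h and Ddit3 (-0.95), Ppp1r15a (-0.38), Pdia5 (-0.47) and Bax (-0.54) at 24 h. Normexp turned Ddit3 (-0.24), Atf4 (-0.20), Chac1 (-0.32), Herpud1 (-0.46), Selenok (-0.20) and Bak1 (-0.03) at 7 h and Ddit3 (-0.34) at 24 h. Array weights turned Chac1 (-0.06) and Herpud1 (-0.01) at 7 h and Ddit3 (-0.20) and Atf5 (0.05) at 24 h. Without both OGD replicate 1 arrays Chac1 was -0.07 at 7 h and Ddit3 -0.30 at 24 h. With 1 array left out, Atf5 ran from -0.13 to 0.03 and Chac1 from -0.07 to 0.09 at 7 h, and at 24 h Ddit3 from -0.30 to 0.35, Atf4 from -0.36 to 0.11, Atf5 from -0.18 to 0.02, Trib3 from -0.30 to 0.05 and Xbp1 from -0.44 to 0.01. None of the reversed changes reached 2-fold. All 10 probes were well above background on every array, so that no member value is a bound from dim signal, while the saturated Atf4 value is one from bright signal.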
